A study of Bos taurus with 10 samples.

Results

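Cytosolic ribosomal proteins are the proteins that, together with ribosomal RNA, build the large and the small subunit of the ribosome that translates nuclear messages. Each ribosome carries a single copy of most of them, so a cell that makes ribosomes needs all of these proteins in matched amounts, and their messages are among the most abundant in secreting epithelia. In mammals these messages start with a stretch of pyrimidines, the terminal oligopyrimidine tract, through which mTOR signalling controls their translation together. The genes were taken by name from the deposited table: every symbol made of RPL or RPS and a number, with at most a letter and a digit after it, the stalk genes RPLP followed by a number, and RPSA. Names that carry a copy number at the end were left out. The rule found 67 of 24596 features, 40 genes of the large subunit and 27 of the small subunit, and all 67 names occur in the RefSeq gene table for cattle. Of these, 62 are core genes and 5 (RPL3L, RPL7L1, RPL10L, RPL22L1 and RPL26L1) are paralogs, each similar in sequence to a core gene whose name it extends.

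The libraries came from epithelial cells of the isthmus, the part of the oviduct that joins the uterus, of heifers (Bos taurus). The 5 cyclic libraries come from animals that underwent a sham transfer without embryos, and the 5 pregnant libraries from animals into which 50 presumptive zygotes, produced in vitro, had been transferred. No other treatment is named for either group, and the labels used here give no age or breed and do not say whether a library is 1 animal. The comparison asks whether the presence of embryos changes the transcripts of the cells around them. Levels are RPKM, reads per kilobase of gene model and per 1000000 reads of the library.

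Library totals recovered from the table (M, 1000000 reads) were lowest in cyclic library 4, with 9.71 M, and highest in pregnant library 5, with 26.1 M. Totals averaged 16.4 ± 3.79 M in cyclic and 19.8 ± 4.02 M in pregnant libraries (SD, n = 5 each; two-sided exact permutation p = 0.254). Markers of the labelled tissue were present: the secretory gene OVGP1 stood at 766 RPKM or more and the ciliated-cell factor FOXJ1 at 51.5 RPKM or more in every library. The 14 secretory markers in the table summed to 7093 to 12724 RPKM in cyclic and 3034 to 4950 RPKM in pregnant libraries, and 12 stromal markers to 93.7 to 150.5 and 48.5 to 79.1 RPKM. OVGP1 weighed most in the secretory sum, with means of 5760 (cyclic) and 2050 RPKM (pregnant). By log2 difference, 11 of the 14 secretory markers were lower in pregnant libraries and 3 higher. The differences of EPCAM (-0.14) and PAX8 (0.02) were small. The 14 ciliated markers summed to 803 to 1014 and 780.4 to 873 RPKM, with PIFO near 0. Of the 13 ciliated markers with a mean of at least 1 RPKM, 10 were lower in pregnant libraries by log2 difference and 3 higher. Over all features at that level, 49.1% were lower. FOXJ1 differed by -0.83 and CCDC39 by 0.96. The 10 leukocyte markers summed to 17.9 to 27.3 and 20.3 to 26.3 RPKM, with CD79A and CD79B near 0. Smooth muscle markers (6 in the table) summed to 18.9 to 39.4 and 18.7 to 50.5 RPKM, endothelial markers (5) to 6.96 to 17.3 and 7.09 to 18.9 RPKM with CDH5 near 0, erythroid markers (3) to 1.15 to 3.38 and 1.62 to 3.04 RPKM with HBB near 0, and oocyte and embryo markers (7) to 11.7 to 13.2 and 7.7 to 14.6 RPKM with POU5F1 listed at 0. Their part in the results below was not tested. In bulk samples fewer cells of a type and less RNA per cell cannot be told apart.

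Ribosomal protein genes were abundant in every library and did not change between cyclic and pregnant heifers in any way that passed the test. The 67 genes held 8.59% to 14.5% of the summed RPKM in cyclic libraries and 8.58% to 12.3% in pregnant ones (means 10.7 ± 2.24% and 10.3 ± 1.38%, SD, n = 5 each). Of the 65 genes with a mean of at least 1 RPKM, 0 were called by limma-trend at an adjusted p under 0.05, and 0% of all 12834 features tested were. At an unadjusted p under 0.05 stood 1 of the 65, against 27.5% of all features. In no ribosomal protein gene did the pregnant libraries lie wholly above or below the cyclic ones, while over all features 4.91% lay wholly above and 2.05% wholly below. The 2 genes not tested were RPL3L, at 0.139 to 0.582 RPKM, and RPL10L, listed at 0 in all 10 libraries.

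Levels differed widely between the genes. Core large subunit genes had a median level of 591 RPKM over all libraries, from 12.3 RPKM for RPL22 to 1458 RPKM for RPL37, and core small subunit genes a median of 776 RPKM, with 50.1 RPKM for RPS29 as the lowest. Of the core genes, 15 lay above 1000 RPKM, 6 of the large and 9 of the small subunit. RPL37, a zinc-binding protein of the large subunit, stood at 869.8, 1280, 2267, 1542 and 1281 RPKM in cyclic libraries 1 to 5 and at 1380, 1491, 1140, 1841 and 1484 RPKM in pregnant libraries 1 to 5. Cyclic library 3 was the highest of all for RPL37 and cyclic library 1 the lowest, so the groups overlapped. RPS29, a zinc-binding protein in the head of the small subunit, stood at 37.4 to 63.3 RPKM in cyclic and 43.7 to 61.2 RPKM in pregnant libraries. The gene models that the values imply ran from 171 bases for RPS29 to 2194 bases for RPL15, with RPL22 at 342 bases, and whether the models set the low levels of RPS29, RPL22 and RPL15 (87.2 to 206 RPKM) was not tested. Reads behind these levels ran from 16, for RPL22 in cyclic library 4, to 46410 in a single library.

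**Figure D1:**
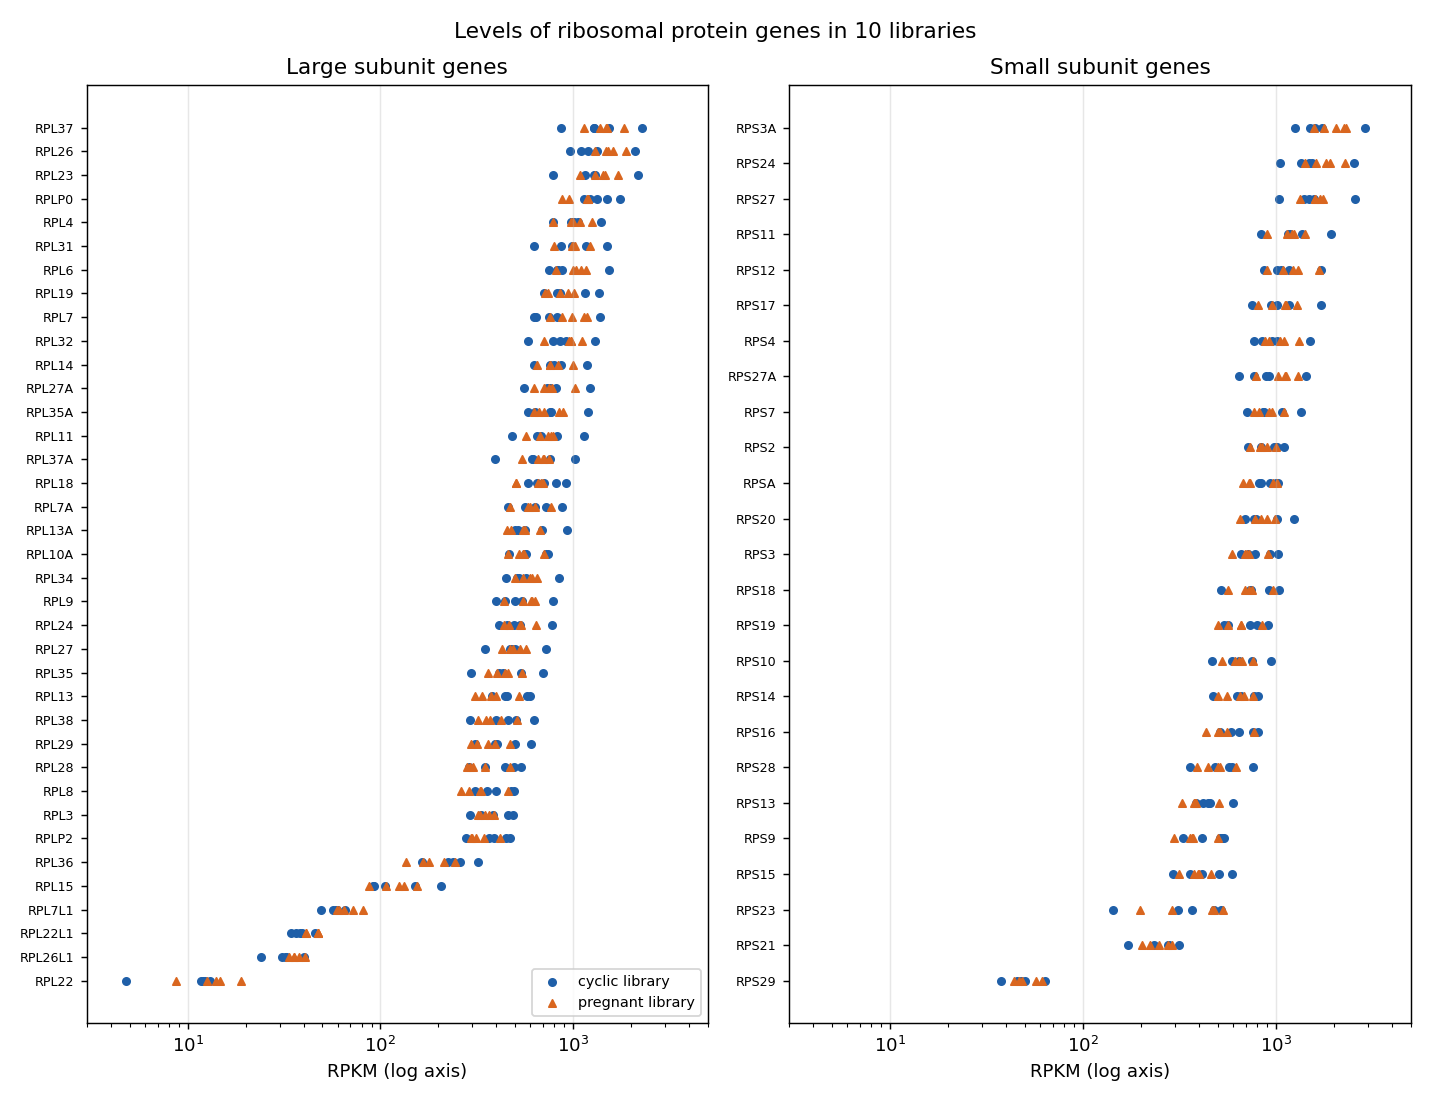
RPKM (log axis) of 62 of the 65 tested genes, large subunit on the left and small subunit on the right, ordered by mean level, with a circle for each cyclic and a triangle for each pregnant library. Most values lie between 100 and 2919 RPKM, the groups overlap in every row, and RPL22, the 3 paralogs and RPS29 stand below the rest.

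Levels of the genes were closely correlated between libraries, and most of what varied was the level of the whole family. Single genes did change places. RPLP0 and RPL26 stood at 1501 and 964 RPKM in cyclic library 4 and at 953 and 1519 RPKM in pregnant library 1. Over the 62 core genes, Pearson's r between 2 libraries ran from 0.932 to 0.994 over 45 pairs of libraries (log2 scale, a description across genes, which are not independent replicates). A shared rise or fall of all core genes took up 69.8% of their variance across libraries, and the median correlation of a core gene with the mean of the others was 0.914 over 10 libraries, which share depth and scaling. The mean of the core genes, centred on all libraries, stood at -0.41, -0.09, 0.53, 0.13 and -0.0011 on the log2 scale in cyclic libraries 1 to 5 and at -0.12, 0.04, -0.31, 0.26 and -0.02 in pregnant libraries 1 to 5. Cyclic library 3 held the highest value of 55 of the 62 core genes, and cyclic library 1 the lowest value of 38 and pregnant library 3 of 15. The pregnant libraries lay inside the range of the cyclic ones, and the cyclic range was wider.

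**Figure D2:**
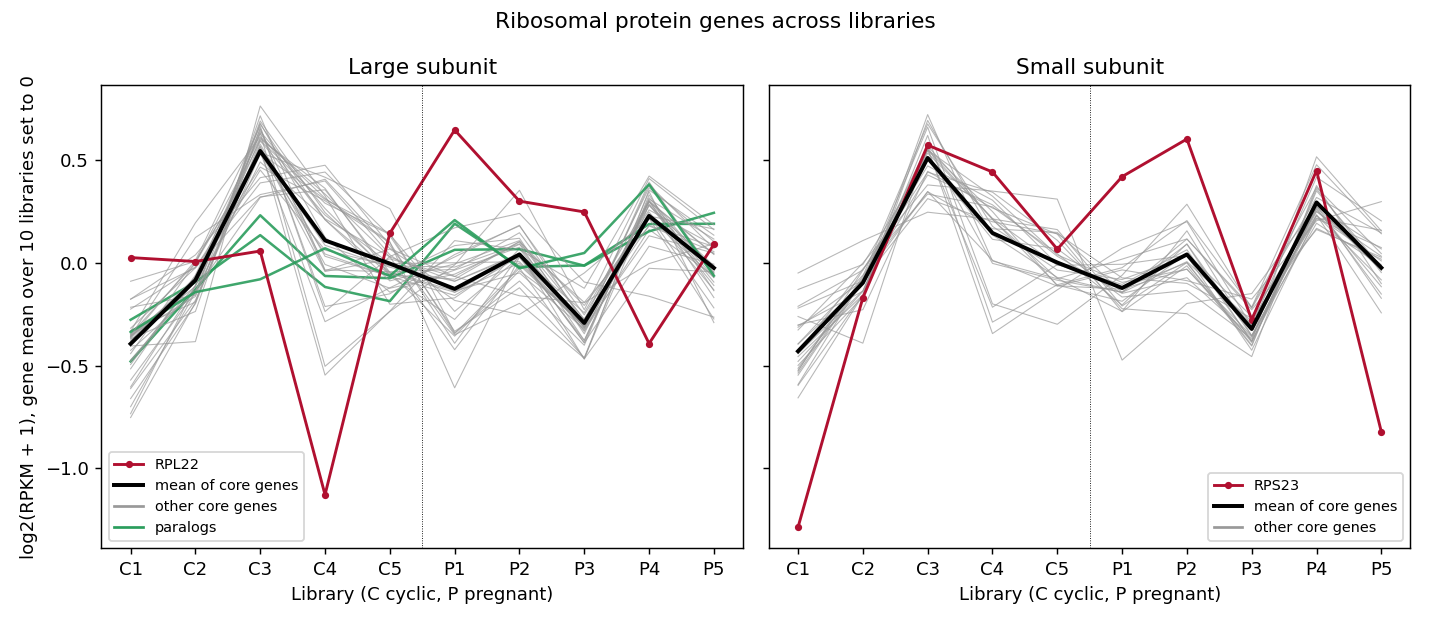
log2(RPKM + 1) of each tested gene with its mean over 10 libraries set to 0, by library (C cyclic, P pregnant, with library numbers), large subunit on the left and small subunit on the right. Black lines are the mean of the core genes, which peaks in cyclic library 3 at 0.53 over both subunits. RPL22 falls in cyclic library 4 and RPS23 in cyclic library 1 and pregnant library 5, apart from the other core genes.

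A few genes left this common course. RPL22, a large subunit protein that also binds RNA outside the ribosome, had a correlation of -0.35 with the other core genes, where the next lowest was 0.607 (RPL35A). It stood at 12, 11.8, 12.2, 4.82 and 13.1 RPKM in cyclic libraries 1 to 5 and, in pregnant libraries 1 to 5, at 18.9, 14.7, 14.1, 8.7 and 12.5 RPKM, so that it was lowest in cyclic library 4 and pregnant library 4 and highest in pregnant library 1. RPS23, a protein of the decoding centre, varied most of all core genes, with a coefficient of variation of 36.6% against a median of 22.1%. It stood at 143, 311, 522, 477 and 367 RPKM in cyclic libraries 1 to 5 and, in pregnant libraries 1 to 5, at 469, 533, 289, 479 and 198 RPKM. Its low values were in cyclic library 1 and pregnant library 5, and its log2 difference between the groups (0.15, SE 0.37) had the largest error of the 65 genes. After RPL22, the lowest correlations with the other core genes were those of RPL35A (0.607), RPL26 (0.613), RPS23 (0.685) and RPLP2 (0.694). RPL22 and RPS23 were singled out here after their values were seen.

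Large and small subunit genes moved in parallel. In the cyclic libraries the mean log2(RPKM + 1) of the 35 core large subunit genes lay 0.34, 0.36, 0.34, 0.41 and 0.38 below that of the 27 small subunit genes in libraries 1 to 5, and in the pregnant libraries 0.38, 0.37, 0.34, 0.44 and 0.37 below. The gap was -0.36 ± 0.03 in cyclic and -0.38 ± 0.03 in pregnant libraries on the log2 scale (SD, n = 5 each), a difference of -0.02. The widest gaps belonged to cyclic library 4 and pregnant library 4, and the groups overlapped. RPL22, by far the lowest of the 35 large subunit genes, was also lowest in these libraries (4.82 and 8.7 RPKM). So low a gene weighs heavily in a mean of log2 levels, and its part in the gap was not tested. No p is given for such a score over many genes. The centred mean ran from -0.39 to 0.55 in cyclic libraries for the large subunit and from -0.43 to 0.51 for the small subunit, whereas the gap between subunits stayed within -0.44 and -0.34 over all 10 libraries.

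**Figure D3:**
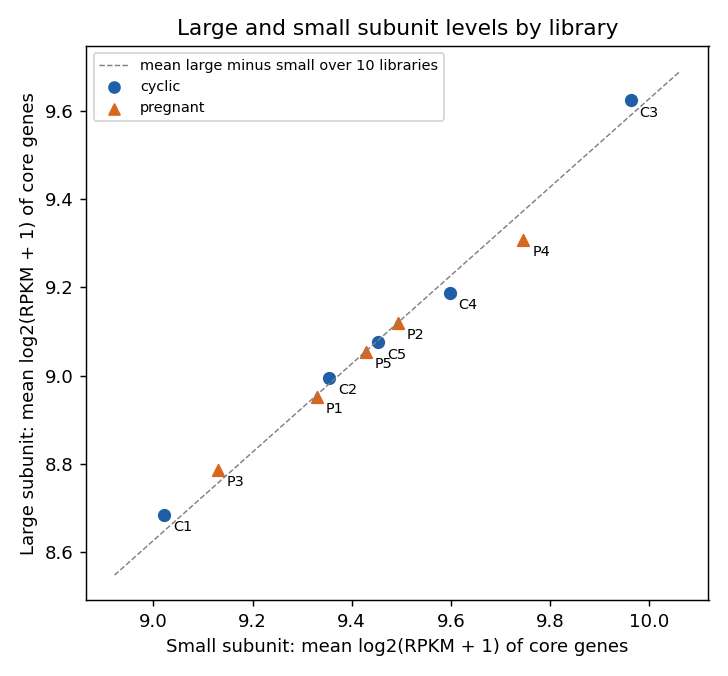
Mean log2(RPKM + 1) of the 35 core large subunit genes (vertical axis) against that of the 27 core small subunit genes (horizontal axis) in 10 libraries, with a dashed line at their mean gap. Cyclic (C, circles) and pregnant (P, triangles) libraries lie along the same line, from cyclic library 1 at the bottom to cyclic library 3 at the top.

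The gap also depended on which genes the naming rule kept. Left out as numbered copies were 14 core names, among them RPLP1, RPL5, RPL10 and RPS6, the small subunit protein phosphorylated by S6 kinase. With the summed copies of each of these 14 names added (giving 45 large and 31 small subunit genes), the gap was -0.15 ± 0.04 in cyclic and -0.15 ± 0.04 in pregnant libraries, a difference of 0.00061. Among the added names RPLP1 was the highest, at a mean of 2849 RPKM. The difference between groups of the 14 added names ran from -0.27 (RPL10) to 0.35 (RPL5) with a median of 0.06, and 10 were above 0. Counting may have split reads among copies of like sequence, which leaves these values uncertain.

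By size, the differences between groups were small in both subunits. On the log2(RPKM + 1) scale, where changes of genes at low levels come out too small, pregnant minus cyclic had a median of -0.04 over 38 tested large subunit genes and -0.07 over 27 small subunit genes, beside 0.0081 over all features. Below 0 were 23 of the 38 and 19 of the 27, in all 42 of 65, against 49.1% of all features, and above 0 were 23 against 50.9%. The median size of a difference, whatever its sign, was 0.12 over the ribosomal protein genes and 0.24 over all features, while the median SE was 0.19 and 0.17. The 95% interval lay within 1 log2 unit either side of 0 for 65 of the 65 genes, as it did for 82.5% of all features. The narrowest interval was that of RPL22L1 (-0.02 to 0.45) and the widest that of RPS23 (-0.65 to 0.95). Changes smaller than 1 log2 unit are therefore not excluded for many of the genes.

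**Figure D4:**
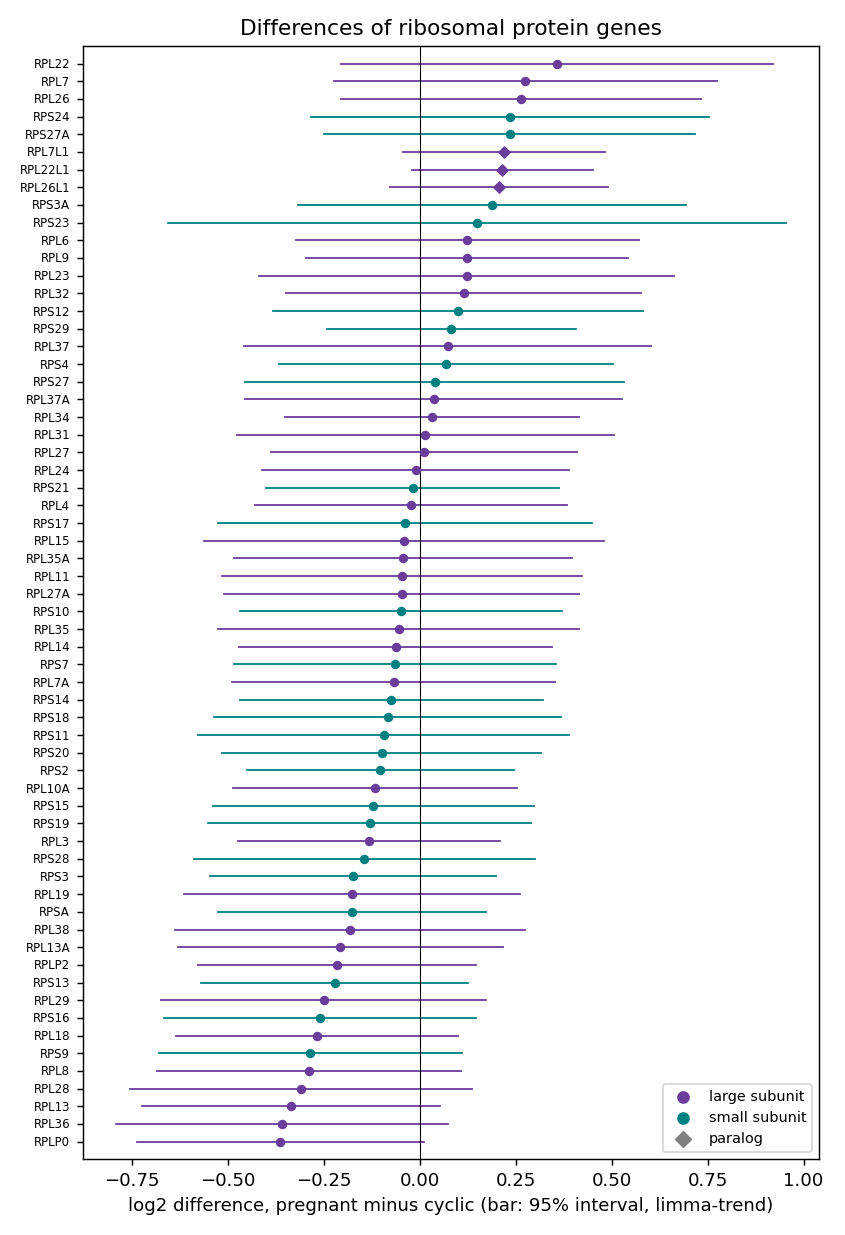
log2 difference, pregnant minus cyclic, of 62 of the 65 tested genes with 95% intervals from limma-trend, coloured by subunit, with diamonds for paralogs. Differences run from -0.36 (RPLP0) to 0.36 (RPL22), and the interval of each gene drawn includes 0. Without cyclic library 4 the difference of RPL22 is 0.12.

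Among the genes of smallest p that were lower in pregnant libraries, none of which passed, were RPLP0 and RPL13. RPLP0, which anchors the acidic stalk that calls elongation factors to the ribosome, stood at 1138, 1217, 1756, 1501 and 1337 RPKM in cyclic libraries 1 to 5 and, in pregnant libraries 1 to 5, at 953, 1190, 876, 1189 and 1175 RPKM. For RPLP0 the log2 difference was -0.36 (SE 0.17, limma-trend adjusted p = 0.192). In RPLP0, pregnant libraries 2, 4 and 5 reached into the cyclic range. RPL13 had means of 490.1 ± 92.5 (cyclic) and 389 ± 82.4 RPKM (pregnant; SD, n = 5 each), a log2 difference of -0.34. Unadjusted p under 0.05 in the lower direction held for 1 of 65 ribosomal protein genes and for 11.9% of all features.

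The stalk was otherwise represented by RPLP2, a partner of RPLP0, which had means of 391 ± 76 (cyclic) and 334 ± 49.5 RPKM (pregnant; SD, n = 5 each; log2 difference -0.22, SE 0.17). RPL3, at the catalytic centre of the large subunit, averaged 390.1 ± 81.8 against 350.5 ± 28.7 RPKM (log2 difference -0.13). RPSA, a small subunit protein also known as the laminin receptor precursor, averaged 924 ± 93.5 against 825 ± 155 RPKM (log2 difference -0.18). Each of these 3 genes overlapped between the groups. With each library left out in turn, the difference ran from -0.33 (without cyclic library 1) to -0.14 (without cyclic library 4) for RPLP2, from -0.23 to -0.05 for RPL3 with the same libraries left out, and between -0.26, when pregnant library 4 was dropped, and -0.11, when pregnant library 3 was, for RPSA. RPL11, which binds MDM2 when ribosome assembly is disturbed, averaged 755 ± 248 against 706.5 ± 85.5 RPKM, and RPL23, which shares that role, 1339 ± 511 against 1396 ± 227 RPKM.

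The difference was smaller than 0.2 on the log2 scale, whatever its sign, in 43 of the 65 genes, and RPS19, RPS3A and RPL6 were among them. RPS19, a small subunit protein whose loss causes Diamond-Blackfan anaemia in humans, had means of 709.7 ± 155.5 (cyclic) and 646 ± 131 RPKM (pregnant; SD, n = 5 each). RPS3A, a small subunit protein, had means of 1806 ± 646 and 1989 ± 309 RPKM, and RPL6, of the large subunit, 963 ± 320 and 1020 ± 131 RPKM. In RPS3A and RPL6 the wide cyclic spread came with cyclic library 3, at 2919 and 1530 RPKM, above all other libraries of either group.

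Higher in pregnant libraries by smallest p were the paralogs RPL22L1, RPL7L1 and RPL26L1 and the core gene RPL22, none of which passed. At an unadjusted p under 0.05 in this direction stood 0 of the 65 genes and 15.7% of all features. RPL22L1, whose protein can take the place of RPL22 (in mice RPL22 holds its message down), stood at 34.3, 39, 45.9, 38.4 and 36.5 RPKM in cyclic libraries 1 to 5 and, in pregnant libraries 1 to 5, at 47.8, 41.1, 41.4, 47.7 and 47.8 RPKM. Its log2 difference was 0.22 (SE 0.11, limma-trend adjusted p = 0.212), the smallest error of all 65 genes, and cyclic library 3 lay among the pregnant values. RPL7L1 stood at 49.3, 56.5, 59.1, 65.7 and 59.7 RPKM in cyclic libraries 1 to 5 and, in pregnant libraries 1 to 5, at 72.3, 61.3, 64.6, 81.7 and 59.8 RPKM (log2 difference 0.22, SE 0.12). RPL26L1 averaged 32 ± 5.69 against 36.7 ± 2.6 RPKM (log2 difference 0.21, SE 0.13), and without cyclic library 1 the difference was 0.11. For RPL22 the difference was 0.36 (SE 0.26), and it was 0.12 without cyclic library 4, where 16 reads were counted, and ran up to 0.50 with other libraries left out in turn. The 3 paralogs followed the family mean less closely than most core genes, with correlations of 0.491, 0.37 and 0.696 for RPL22L1, RPL7L1 and RPL26L1 over 10 libraries.

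Set beside their parents, the paralogs stood at lower RPKM except in the RPL22 pair. RPL22L1 stood above RPL22 in every library on the RPKM scale, at 280% to 796% of it in cyclic and 252% to 549% in pregnant libraries. Their gene models were of 1165 and 342 bases, and whether the short model of RPL22 set this order was not tested. RPL7, a core protein, had means of 842 ± 309 (cyclic) and 987 ± 175 RPKM (pregnant; SD, n = 5 each; log2 difference 0.28, SE 0.23), and RPL7L1 stood at 4.29% to 10.5% of it in cyclic and 5.42% to 8.55% in pregnant libraries. RPL26 averaged 1335 ± 441 against 1555 ± 218 RPKM (log2 difference 0.26, SE 0.21, and 0.16 without cyclic library 4), and RPL26L1, which encodes a nearly identical protein, stood at 1.92% to 3.37% and 2.01% to 2.6% of it. In these pairs reads could have been divided between parent and paralog, so the shares are uncertain. RPL3L, the form known from heart and skeletal muscle, reached at most 0.2% of RPL3 and rested on 3 to 13 reads a library. RPL10L, known from testis, was listed at 0, and its parent RPL10 is among the numbered copies, where the leading copy held at least 99.9% of the summed RPKM.

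**Figure D5:**
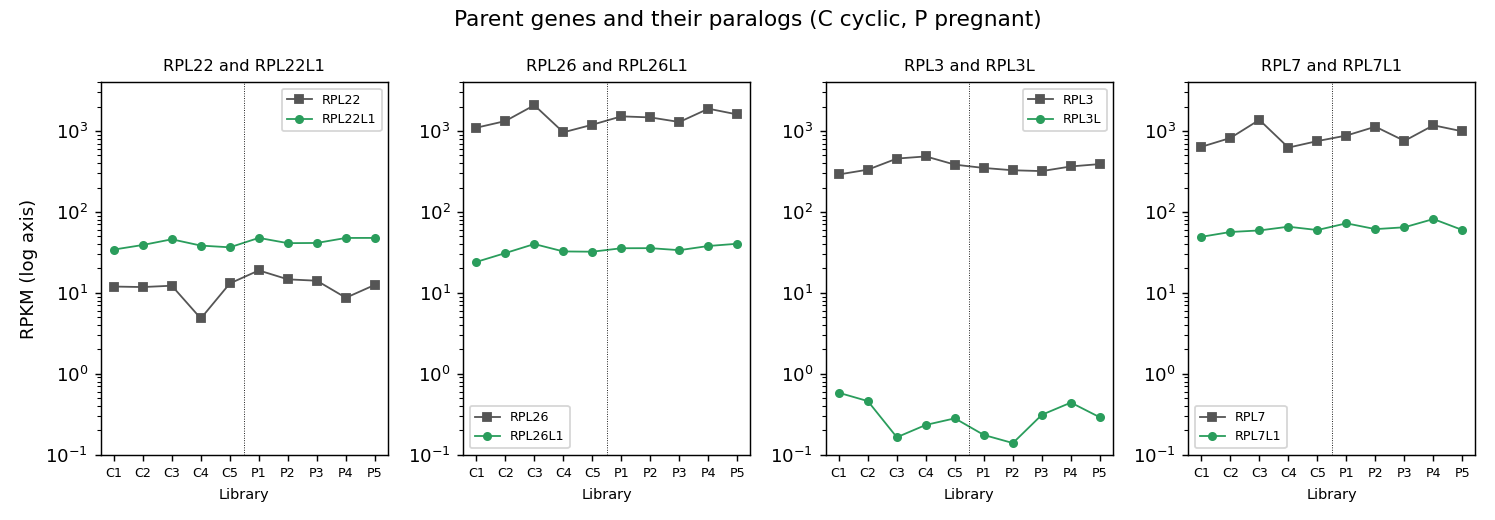
RPKM (log axis) of 4 parent genes (squares) and their paralogs (circles) in 10 libraries (C cyclic, P pregnant). RPL22L1 lies above RPL22 throughout, RPL26L1 and RPL7L1 lie well below their parents, and RPL3L stays under 1 RPKM.

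The count of calls depended on how libraries were weighted. With sample array weights 2 of the 65 genes passed, both lower in pregnant libraries, among them RPL36 of the large subunit (log2 difference -0.39, limma adjusted p = 0.0458). Over all features 37.6% passed with those weights, 18.2% in the lower direction. RPL36 stood at 165, 239, 320, 260 and 224 RPKM in cyclic libraries 1 to 5 and, in pregnant libraries 1 to 5, at 136, 213, 166, 245 and 179 RPKM, and its difference without weights was -0.36 (SE 0.20, adjusted p = 0.255). Without cyclic library 3, 17.2% of all features passed and 0 of the 65 genes did (smallest adjusted p = 0.071), and 42 of 65 then lay above 0 against 50.3% of all features, where 23 had before. In that fit RPL26 and RPL7 differed by 0.44 and 0.47. Without cyclic library 3 and pregnant library 4 together, 27.9% of all features and 0 of the 65 genes passed. The direction of the family median turned from -0.06 to 0.08 without cyclic library 3, in which the family stood highest, and to 0.01 without pregnant library 3, in which it stood lowest of the pregnant libraries.

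Changes relative to the family itself were measured with another scaling. Dividing each library by the geometric mean of the 62 core genes, a scaling chosen after the data were seen, left 0 of 65 genes (smallest adjusted p = 0.306, limma-trend) and 0.00779% of all features past the threshold. The 62 core genes set this scaling themselves, which holds their mean difference near 0 and lowers their spread between libraries. Their share past a threshold therefore cannot be read against that of all features. At an unadjusted p under 0.05 stood 6 of the 65 genes and 14.5% of all features. Of these, 2 were lower, among them RPLP0 (-0.30, SE 0.12), and 4 were higher, RPL7 (0.34, SE 0.15), RPL26 (0.32, SE 0.15), RPS24 (0.30, SE 0.12) and RPS27A (0.30, SE 0.13), the last of which encodes a small subunit protein fused to ubiquitin. Before that scaling RPS24 had means of 1590 ± 564 (cyclic) and 1814 ± 329 RPKM (pregnant; SD, n = 5 each), and RPS27A 935 ± 304 against 1074 ± 188 RPKM. Unscaled, RPL7 and RPL26 were lowest in cyclic library 4 (624 and 964 RPKM) and RPS24 and RPS27A in cyclic library 1. The scaling divided cyclic library 4 by 1.09 and cyclic library 1 by 0.752. The part of these libraries in the 4 higher genes was not tested.

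Genes that build ribosomes or share the translational control of their messages are given by counts, and none of them passed over all features. Over all features tested, 15.7% were higher and 11.9% lower at an unadjusted p under 0.05, and 4.91% lay wholly above and 2.05% wholly below. Of 17 tested messages with a terminal oligopyrimidine tract that are not ribosomal (a list known from human cells), 5 were lower and 1 higher at an unadjusted p under 0.05, with a median log2 difference of 0.02, and 3 lay wholly below in the pregnant libraries, EIF3F and GLTSCR2 among them. EIF3F, a subunit of an initiation factor, had means of 93.8 ± 16.7 (cyclic) and 59.2 ± 6.92 RPKM (pregnant; SD, n = 5 each; log2 difference -0.65, limma-trend adjusted p = 0.0934), and GLTSCR2, an assembly protein, 45.6 ± 5.32 against 31.9 ± 3.63 RPKM. Of 38 tested ribosome assembly genes, 12 were higher and 1 lower at that p, with a median of 0.09. LTV1, an assembly factor of the small subunit, averaged 10.1 ± 1.28 against 16.8 ± 1.97 RPKM and DIMT1, which methylates ribosomal RNA, 30.3 ± 6 against 46.7 ± 4.48 RPKM. Both LTV1 and DIMT1 were higher in every pregnant library than in any cyclic one, and 4 of the 38 assembly genes lay so. Of the 12 assembly genes counted as higher, 10 had their lowest level in cyclic library 4, the shallowest library. DIMT1 (20.2 RPKM) and LTV1 (7.93 RPKM) were among them. The part of that library in the count was not tested, and the like share over all features counted as higher was not taken. Choosing genes that are higher in pregnant libraries itself favours a lowest value in a cyclic library. Whether assembly genes and ribosomal protein genes differed from each other was not tested.

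Of 12 tested genes of RNA polymerase I transcription, which makes ribosomal RNA, 3 were higher and 0 lower at an unadjusted p under 0.05 (limma-trend, median 0.01, 0 past the adjusted threshold). The examples of smallest p, TAF1B and TAF1D, subunits of its selectivity factor, differed by 0.61 and 0.75 on the log2 scale. All 3 were lowest in cyclic library 4. There TAF1D stood at 8.3 RPKM, and the other cyclic libraries held 24.1 to 33 RPKM of it. Shares at this p over all features were 15.7% higher and 11.9% lower. Of 17 tested genes of mTOR signalling and ribosome regulation, 2 were higher and 2 lower (median -0.13). MYC, a transcription factor that drives ribosome production, had means of 5.84 ± 1.52 (cyclic) and 2.61 ± 1.72 RPKM (pregnant; SD, n = 5 each). For TSC2, an inhibitor of mTOR, the log2 difference was -0.70. MYC and TSC2 overlapped between the groups, and neither passed the adjusted threshold. Of 74 tested mitochondrial ribosomal protein genes, 13 were higher and 8 lower (median 0.06), near the shares over all features. The mitochondrial genes of smallest p were MRPL19 and MRPL35, with log2 differences of 0.93 and 0.47. All 13 mitochondrial genes counted as higher were lowest in cyclic library 4, where MRPL19 stood at 24.6 and MRPL35 at 10.4 RPKM. The part of that library in these counts was not tested. Without the like share over all features counted as higher, they cannot be read as particular to these genes. GNB2L1, the scaffold protein RACK1 of the small subunit, had means of 1006 ± 146 (cyclic) and 836 ± 147 RPKM (pregnant; log2 difference -0.27), and overlapped between the groups.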

How the data were processed

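The authors deposited a table of 24596 features in 10 libraries; per the file headers its values are expression, and from the values themselves, scaled by gene length and library total, they were taken as RPKM. Per the labels' protocols, RNA was selected with oligo-dT and made into stranded libraries; the sources used here do not name an aligner, counter, build or annotation. Library totals were taken as the read numbers at which 11 mitochondrial genes of annotated length give whole reads (tolerance 0.02 reads), and gene model lengths were recovered likewise for 66 of 67 genes. Tests used limma-trend (limma 3.58.1, R 4.3.3; tested on simulated data) on log2(RPKM + 1) with group as its single term, for the 12834 features whose mean RPKM reached 1, with Benjamini-Hochberg adjustment over all of them and a threshold of 0.05. Totals were compared over 252 assignments (scipy 1.17.1). P-values reflect only how much these libraries vary, which may be technical.

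Named were the 4 genes of smallest p in each direction, the highest and lowest core gene of each subunit, RPLP0, RPLP2, RPSA, RPL3, detected paralogs with their parents, and 2 genes of smallest p of each pathway list; RPLP1 and RPS6 occur only as numbered copies, further genes were named after their values were seen, and some genes that the rule names are not reported here, in text or figures. The members and lists were chosen with earlier results of these data known. Alternatives were a pseudocount of 0.1, no filter or a minimum of 5 RPKM, median-ratio scaling or a common sum, array weights, a threshold of 0.1, each library left out and the library number as a block; scaling by the family and leaving out 2 libraries together were added after seeing the data. Sequences were not used here.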

Additional observations from a re-analysis of the deposited data

Results flagged for a closer look

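Values in which 1 library lay far from the other 4 of its group, by a gap of more than 0.71 of the group's range, were looked for in 138 groups; chance flags about 1 in 20 groups, and 7 were found. Among the family these were RPL22 in cyclic library 4 (4.82 RPKM, others 11.8 to 13.1 RPKM), and RPL6, RPL7 and RPS3A in cyclic library 3 (1530, 1375 and 2919 RPKM, others 750.5 to 874, 624 to 821 and 1263 to 1739 RPKM). The library total of cyclic library 4 was 9.71 M reads, with 16.9 to 18.8 M in the other cyclic libraries. The copy RPL12_2 stood at 489.8 RPKM in cyclic library 2 (others 101.5 to 126 RPKM) and at 601 RPKM in pregnant library 5 (others 76.4 to 147 RPKM).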

How the results depend on the processing

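The count of ribosomal protein genes past the threshold was 0 under all 20 alternatives except array weights, where it was 2. With each library left out in turn it ran from 0 to 0, the median difference of the family from -0.17 to 0.08 (main -0.06), that of the large subunit from -0.16 to 0.11, that of the small subunit from -0.19 to 0.06, and large minus small from -0.03 to -0.0025. The family median was above 0 without cyclic library 3 (0.08) or pregnant library 3 (0.01). Single genes near 0 changed direction: RPL37 ran from -0.093 (without cyclic library 1) to 0.25, and was -0.01 without pregnant library 4; RPS29 ran from -0.0055 (without cyclic library 1) to 0.18. The cause was not tested. Same-numbered libraries were not alike as a rule (correlations from -0.34 to 0.28 over 5 pairs, highest for number 4), which cannot exclude a pairing of samples. With the number as a replicate block the count of genes past the threshold was 0. Reads were few for RPL22 (16 to 112 reads a library) and RPL3L (3 to 13 reads), and whether depth set their values was not tested.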

Other observations

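The copies that share the name RPL12, a protein at the base of the stalk, differed in order between libraries. RPL12_1 held 73.5% to 88.4% of their summed RPKM in 8 libraries, 23.3% in cyclic library 2 and 21.2% in pregnant library 5. RPL12_1 stood at 149 and 162 RPKM in those libraries and at 294 to 780.4 RPKM in the others. The sum of both copies had means of 654.5 ± 177 (cyclic) and 674 ± 120 RPKM (pregnant; SD, n = 5 each). Of the 15 names with numbered copies, 10 had a leading copy with over 90% of the sum in every library, and RPL39 and RPL36A were divided at 59.9% to 66% and 65.2% to 73.7% for the leading copy.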
